A study of Mus musculus with 185 samples.

Results

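Trp53 and 9 genes that p53 is known to induce, Cdkn1a, Mdm2, Ccng1, Bbc3, Phlda3, Zmat3, Trp53inp1, Sesn1 and Sesn2, were followed in single epidermal Langerhans cells (LCs) taken long after lethal irradiation of the host. These 10 genes were a list of names, not picked by a rule on their values, but chosen with earlier results of these data known. All 10 were among the 45661 genes listed. The cells came from bone marrow chimeras (BMC) in which CD45.1 B6 Cd207DTR mice received 12 Gy, then CD45.2 WT bone marrow, and 2 months later 5 ng of diphtheria toxin (DT) per gram of body weight. Epidermal LCs were sorted singly 2 months after DT and sequenced with a Smart-Seq kit. The 5% limit on mitochondrial reads that the study used kept 182 cells and left out 3.

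Embryonic LCs (eLCs) were CD45.1 host cells. They carried the Cd207DTR allele, were, or descend from, cells in the skin when the host was irradiated, and had survived the low dose of DT, which spares part of the CD207-expressing cells. Monocyte-derived LCs (moLCs) were CD45.2 WT donor cells that had not been irradiated, lacked the DTR allele, and had entered the epidermis of an irradiated host. Irradiation, origin, the DTR allele and time spent in the skin therefore differ together between the 79 eLCs and the moLCs kept, and cannot be told apart. LCs of mice that were never irradiated are not analysed here. Plate 1 held 29 eLCs and 67 moLCs, and plate 2 held 50 and 36. No animal was named for any cell, nor an age or sex, so each origin is 1 sample, and every difference below is a description without a test or a replicate check.

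p53 is a transcription factor that is kept scarce by MDM2, a ubiquitin ligase whose own gene p53 induces. DNA damage frees p53 from MDM2, and its targets then halt the cell cycle, promote repair or start apoptosis. LCs are macrophages of the epidermis that renew themselves locally, and they are known to persist in skin after irradiation doses that remove most other leukocytes. Cdkn1a, which encodes the cyclin-dependent kinase inhibitor p21, has been tied to this persistence.

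The deposited values are read counts without molecular identifiers, with 233438 to 4525429 reads per cell. Levels below are reads of a gene per 1000000 reads (CPM), either in 1 cell or over an origin's cells taken as 1 sum, and intervals are exact at 95% and cover counting error only, since PCR copies are not independent molecules. The label LC was checked against markers: every LC marker on the list was read, Cd74 in 100% of the cells of both origins and Epcam in 98.7% of eLCs and 99.03% of moLCs. The LC markers were not all at like levels, as summed Cd207 was 12.2-fold higher in moLCs. Within plates it was 12.1-fold higher on plate 1 and 11.3-fold higher on plate 2. Of the 8 LC markers, Cd207 was the only 1 to meet the size rule given below. Of the markers of other cells, none of 3 for fibroblasts, 2 of 5 for T cells (not Cd3e, Trdc or Nkg7), 1 of 4 for melanocytes (Pmel) and 3 of 5 for keratinocytes (not Krt15 or Krt1) had a read, the most widely read being Krt14, in 3 eLCs and 11 moLCs. All 5 monocyte and all 3 dermal DC1 markers had a read, with Lyz2 in 22.8% of eLCs and 41.7% of moLCs, Itgae in 18.99% and 11.7%, and Xcr1 in 15.2% and 6.80%. In the median cell of both origins the summed level of each of these lists was 0 CPM. The eLCs had more genes with a read, with a median of 4488 per cell against 4026 in moLCs, and 4426 against 4024 after each cell was thinned to 2052512 reads. The part of this gap in the shares of cells given below was not tested.

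Summed over eLCs, 4 of the 10 genes were at higher levels than in moLCs in all cells and within both plates: Trp53, Mdm2, Ccng1 and Bbc3. All 4 were among the 6 genes of the list read in enough cells, by the 25% limit given below. Of all genes past that limit, 2199 of 6522 (33.7%) had this order too. The criterion was added after the values were seen. For Trp53, Mdm2, Ccng1 and Bbc3 the log2 ratios of summed CPM, moLC over eLC, were -0.53, -0.27, -0.53 and -0.85. On plate 1 the Ccng1 ratio was within counting error of 0 (-0.03, interval -0.07 to 0.01). Summed Trp53inp1 was higher in moLCs in all cells and on both plates, with a log2 ratio of 0.91, or 0.19 with equal weight per cell. Cdkn1a, the gene with the most reads of the 10, went in opposite directions on the plates. Trp53, Cdkn1a, Mdm2 and Ccng1 were the most widely read, and the other genes had a read in 50.6% of eLCs at most. No gene of the list met the size rule, by which 25% or more of the eLCs or of the moLCs have a read and the sums differ 2-fold or more, the same way with the plates pooled and on each plate. Of 6522 genes that reached the 25% limit, 132 (2.02%) met the size rule, 79 of them (1.21%) with the higher level in eLCs. The genes of the list that reached this limit were 6, Trp53, Cdkn1a, Mdm2, Ccng1, Bbc3 and Sesn2.

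**Figure D1:**
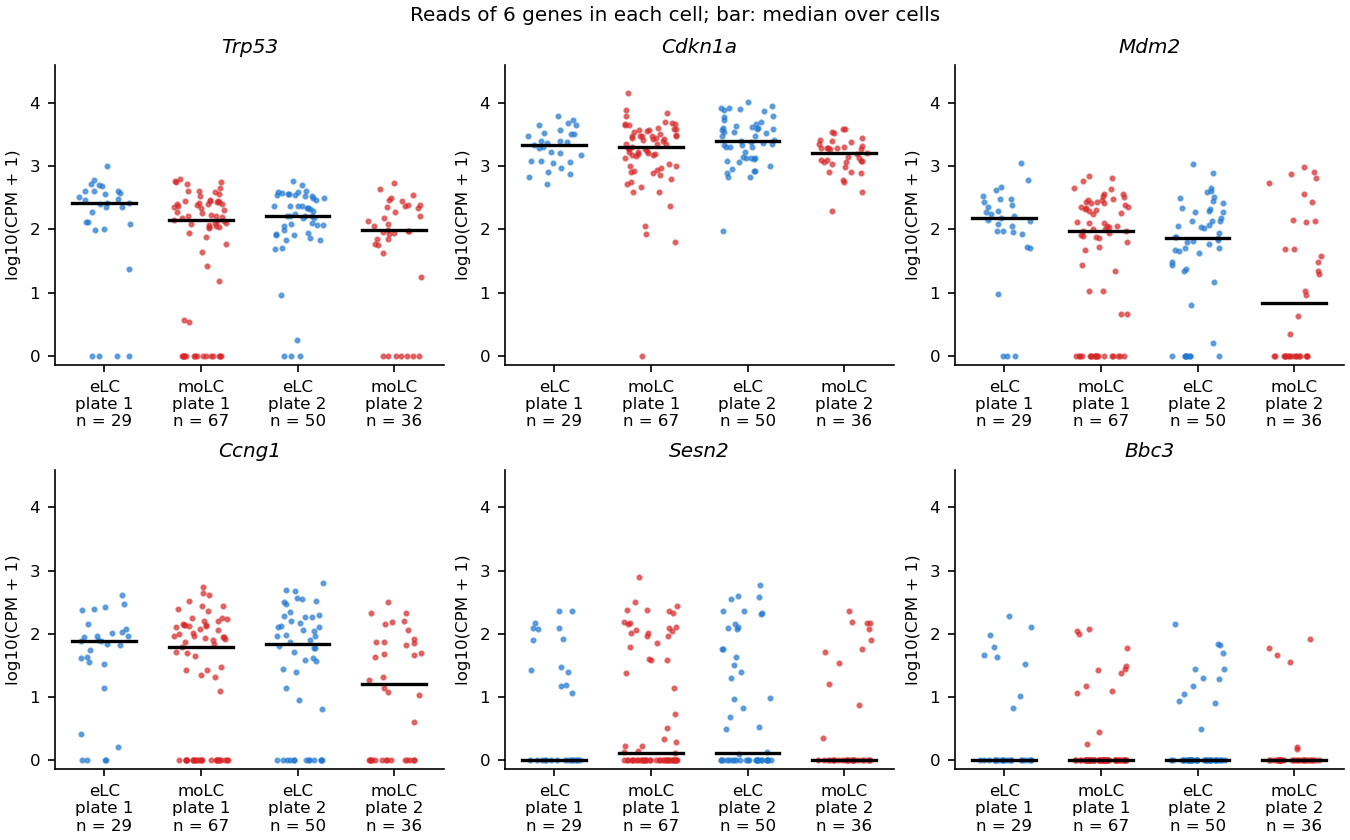
Levels of Trp53, Cdkn1a, Mdm2, Ccng1, Sesn2 and Bbc3 in each cell, as log10(CPM + 1) on the y axis, by origin and plate on the x axis; each point is 1 cell and the bar is the median over cells. Cdkn1a was read in all cells but 1 moLC, whereas the other genes had cells at 0 in both origins and on both plates.

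Trp53 encodes p53 itself and lies on chromosome 11 (69580359-69591873, + strand, GRCm38). It was read in 72 of 79 eLCs (91.1%, interval 82.6 to 96.4) and in 81 moLCs (78.6%, 69.5 to 86.1). Its CPM per cell ranged from 0 to 1009 in eLCs with a median of 211.5, and from 0 to 637 in moLCs with a median of 125.1. The ranges overlapped almost entirely, and the median eLC stood above the median moLC. Summed over cells, Trp53 was at 234 CPM in eLCs and 162 CPM in moLCs. The log2 ratio was -0.63 on plate 1 and -0.62 on plate 2, the closest match between plates of any gene on the list. The pooled ratio of -0.53 lies outside both because Trp53 was lower on plate 2, with log2 ratios of plate 2 over plate 1 of -0.39 in eLCs and -0.38 in moLCs, and most eLCs were on plate 2. Leaving out any 1 cell gave a pooled ratio of -0.57 to -0.46, so no single cell decided it. The level of Trp53 mRNA does not measure p53 protein, which is controlled mainly after translation. Trp53-ps, a pseudogene named after it, had 17 reads in all cells kept.

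Mdm2, the ubiquitin ligase that closes the feedback loop on p53, lies on chromosome 10 (117688875-117710758, - strand). It was read in 68 of 79 eLCs (86.1%, interval 76.5 to 92.8) and 69 moLCs (66.99%, 57.03 to 75.9). The same order was seen on each plate, where the intervals of the origins overlapped, with 89.7% of eLCs against 73.1% of moLCs on plate 1 and 84% against 55.6% on plate 2. At equal depth the shares were 86.6% and 67.7%, and with at least 10 reads asked for they were 82.3% and 63.1%. The CPM per cell had a median of 107.2 in eLCs (0 to 1142) and 50.9 in moLCs (0 to 989). Among cells with a read, the median was 550 reads in eLCs and 502 reads in moLCs on plate 1, and 256 and 211 reads on plate 2. The pooled medians of 356 and 398 reads are in the other order, with the origins unequally spread over the plates. The summed level was 182 CPM against 151 CPM with a log2 ratio of -0.39 on plate 1 and -0.19 on plate 2.

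Cdkn1a holds cells out of the cycle through p21, and it lies on chromosome 17 (29090976-29100727, + strand). It was read in all 79 eLCs and in all moLCs but 1 (99.03%, interval 94.7 to 99.98). At 2552 CPM over all cells it ranked 38 among the 6522 genes and took 82.4% of the reads of the 10 genes. Per kilobase of exon its summed level reached 836 CPM in eLCs and 633 CPM in moLCs, whereas the next gene, Trp53, was at 57.9 and 40.2 CPM per kilobase. Cdkn1a was thus high in LCs of both origins, and the cause was not tested.

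Cdkn1a per cell ranged from 94.9 to 10285 CPM in eLCs (median 2393) and from 0 to 14366 CPM in moLCs (median 1878), so that the single highest and the single lowest cell were both moLCs. On plate 1 the sums were 2348 CPM in eLCs and 2542 CPM in moLCs, or 0.11 as a log2 ratio. On plate 2 they were 3390 CPM and 1700 CPM, or -0.996 as a log2 ratio. Each origin differed between plates, as plate 2 was 0.53 above plate 1 in eLCs on the log2 scale and changed by -0.58 in moLCs. The pooled log2 ratio of -0.40 thus came from plate 2, where alone the moLCs were lower. A gene model on the opposite strand overlaps Cdkn1a, and without strand in the counting the reads of such a pair cannot be told apart. What else differed between the plates was not given in the sources used here.

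The p53 binding site consists of a pair of 10-base decamers, and its sequence is shown where a window around a start site held a close match, because Cdkn1a and Ccng1 are the classic examples. RefSeq windows of 300 bases (250 before to 50 after the start site, GRCm38.p6) were found for 8 of the 10 genes, 12 windows in all, while Zmat3 and Trp53inp1 had none. Both strands were read, and gaps of up to 13 bases between the decamers were allowed. A match with 0 mismatches was found in 24 of 32851 windows (0.0731%), and among the 12 windows in 1 of the 2 windows of Cdkn1a, at chr17:29090906-29090937 on the + strand, where the first base lies 73 bases before the start site. The closest match in its other window had 5 mismatches. Capitals mark the decamers, which are separated by 12 bases, in the window chr17:29090729-29091028. Only the pair with the fewest mismatches is marked. Its second decamer is followed directly by tgacatgttc, a near match to a decamer, so the window also holds a close pair without a gap. Which pair p53 binds was not tested.

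Cdkn1a: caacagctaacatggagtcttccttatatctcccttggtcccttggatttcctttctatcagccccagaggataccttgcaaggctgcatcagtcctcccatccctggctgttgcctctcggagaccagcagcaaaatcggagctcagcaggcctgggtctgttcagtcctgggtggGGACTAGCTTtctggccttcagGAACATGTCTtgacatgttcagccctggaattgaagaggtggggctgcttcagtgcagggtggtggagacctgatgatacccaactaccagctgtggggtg

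Ccng1 had a match with 1 mismatch and no gap at chr11:40755462-40755481, 195 bases before its start site, and 206 of 32851 windows (0.627%) held a match as close. The gene is on the - strand and its window, chr11:40755237-40755536, is given in the direction of transcription.

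Ccng1: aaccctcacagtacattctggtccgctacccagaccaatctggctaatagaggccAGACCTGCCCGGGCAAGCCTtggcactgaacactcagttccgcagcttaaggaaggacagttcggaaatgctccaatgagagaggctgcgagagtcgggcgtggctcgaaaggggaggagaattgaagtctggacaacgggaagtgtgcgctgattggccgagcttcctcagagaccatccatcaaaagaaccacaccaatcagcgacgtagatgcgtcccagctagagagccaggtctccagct

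One window of Sesn1 held a match with 2 mismatches at chr10:41887253-41887275 (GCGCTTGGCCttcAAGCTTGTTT), a closeness shared by 4.09% of all windows. At up to 3 mismatches the count was 6 of 12 windows, with those of Bbc3 and Trp53 added, against 15.6% of all windows. Matches are a description of letters and do not show binding. The genes with the closest matches did not share a pattern between origins: Cdkn1a turned with the plate, Ccng1 was lower in moLCs on plate 2, and Sesn1 was rarely read.

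Ccng1 encodes cyclin G1, which recruits a phosphatase to MDM2, and lies on chromosome 11 (40748552-40755311, - strand). It was read in 62 of 79 eLCs (78.5%, interval 67.8 to 86.9) and 65 moLCs (63.1%, 53.03 to 72.4). On plate 1 the shares were 86.2% and 64.2%, and on plate 2 they were 74% and 61.1%. Its CPM per cell had a median of 72.9 in eLCs (0 to 622) and 43.98 in moLCs (0 to 553), and the ranges overlapped. The summed level did not follow the share on plate 1, with 96.4 CPM in eLCs against 94.3 CPM in moLCs (log2 ratio -0.03, interval -0.07 to 0.01). On plate 2 it was 130 CPM against 55.4 CPM (log2 ratio -1.23). In the plate 1 eLCs, 1 cell held 20.1% of the Ccng1 reads.

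Mdm2 and Ccng1 were the genes of the list with a share of cells higher in eLCs by at least 10 percentage points on both plates, a criterion added after the values were seen. They were 2 of the 6 genes that passed the 25% limit, and 587 of the 6522 genes (9.0%) met the same criterion. The gaps were 16.5 and 28.4 points for Mdm2 on plates 1 and 2, and 22.03 and 12.9 points for Ccng1. Trp53 was close to the limit with 8.59 and 13.4 points, and so was Bbc3 with 11.6 and 9.33 points. Over the 6522 genes the median difference in share, moLC minus eLC, was -4.12 points, against -10.95 points over the 6 genes.

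**Figure D2:**
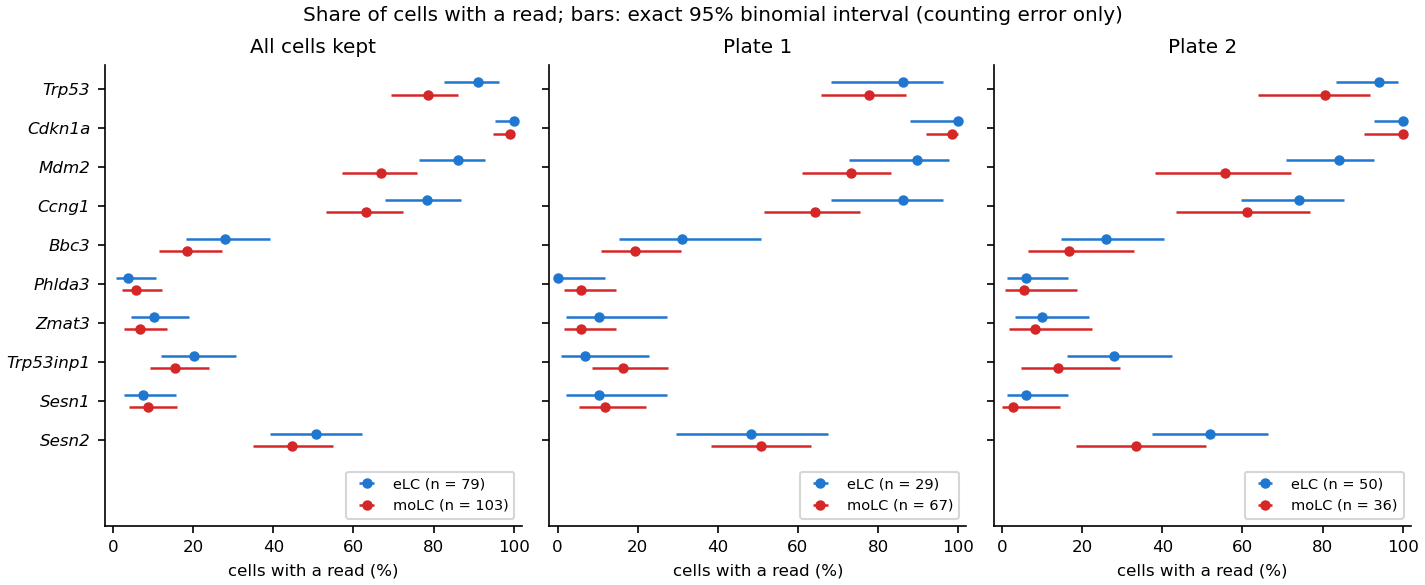
Share of cells with a read of each of the 10 genes (x axis, percent) in eLCs and moLCs, for all cells kept, plate 1 and plate 2; bars are exact 95% binomial intervals. Mdm2 lies at 86.1% of eLCs and 66.99% of moLCs, with the eLC point to the right in all 3 panels, whereas Cdkn1a is near 100% throughout and Phlda3, Zmat3 and Sesn1 stay near the left edge.

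Bbc3 encodes PUMA, a BH3-only protein that starts apoptosis, and lies on chromosome 7 (16308393-16318205, + strand). It was read in 22 of 79 eLCs (27.8%, interval 18.3 to 39.1) and 19 moLCs (18.4%, 11.5 to 27.3). It passed the 25% limit through the eLCs only, so its place among the 6 genes rests on the group where it was higher. The median cell of both origins had no read, and the highest cells were at 187 CPM in eLCs and 118 CPM in moLCs. Summed levels were 13.2 CPM and 7.37 CPM, with log2 ratios of -1.12 on plate 1 and -0.81 on plate 2. Leaving out 1 cell moved the pooled value from -0.85 to between -1.10 and -0.59, because few cells carried the reads. Bax, the effector of the same pathway and also a p53 target, was at 170 CPM in eLCs and 105.6 CPM in moLCs (log2 ratio -0.69, with -0.77 on plate 1 and -0.57 on plate 2). Pmaip1, another BH3-only gene, was at 18.4 CPM and 68.3 CPM, with a log2 ratio of 2.88 on plate 1 and -0.06 on plate 2. A single moLC held 33.8% of the Pmaip1 reads of moLCs, and leaving out 1 cell gave a pooled log2 ratio of 1.32 to 2.17.

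Phlda3, Zmat3 and Trp53inp1 were read in few cells, and none passed the 25% limit in either origin. Phlda3, which encodes a repressor of AKT signalling (chromosome 1, 135766119-135769136, + strand), was read in 3 of 79 eLCs (3.80%, interval 0.790 to 10.7) and 6 moLCs (5.83%, 2.17 to 12.2). On plate 1 it was read in 0 of 29 eLCs, which allows a share of up to 10.3% by 3 counts of the total, with an exact upper limit of 11.9%. Zmat3, an RNA-binding protein gene (chromosome 3, 32334792-32366014, - strand), was read in 8 eLCs (10.1%) and 7 moLCs (6.80%). Its sum leaned on 1 cell in each origin, with 36.6% of the reads in eLCs and 59.4% in moLCs, and the pooled log2 ratio of -0.83 ran from -2.12 to -0.20 when 1 cell was left out.

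Trp53inp1, which promotes autophagy and p53 activity (chromosome 4, 11156431-11174379, + strand), was read in 16 eLCs (20.3%, interval 12.04 to 30.8) and 16 moLCs (15.5%, 9.15 to 24). Its summed level was higher in moLCs, at 13.98 CPM against 7.42 CPM, and this order held on plate 1 (log2 ratio 3.52) and on plate 2 (0.62). The share did not follow on plate 2, where 28% of eLCs and 13.9% of moLCs had a read. On plate 1, 2 of 29 eLCs had a read, and 1 of them held 86.7% of these reads. Over both plates, no cell held more than 23.3% of its reads, and leaving out 1 cell gave a log2 ratio of 0.69 to 1.28. With equal weight per cell, the pooled log2 ratio of Trp53inp1 was only 0.19. On plate 2 its mean CPM per cell was 18.43 in eLCs and 18.38 in moLCs, so the order there rested on the sums. For Phlda3, Zmat3 and Trp53inp1 the intervals of the shares overlapped between origins in all cells and on both plates.

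Sesn1 and Sesn2 encode sestrins, which restrain mTORC1 and limit oxidative damage. Sesn1, on chromosome 10 (41809935-41908424, + strand), was read in 6 of 79 eLCs (7.59%) and 9 moLCs (8.74%), of which 8 were on plate 1. Its sums were 4.94 CPM in eLCs and 7.04 CPM in moLCs (log2 ratio 0.51), with -0.22 on plate 1 and 2.67 on plate 2. In eLCs, 1 cell held 58.9% of the Sesn1 reads, and leaving out 1 cell gave a pooled ratio of 0.0003 to 1.77. Sesn2, on chromosome 4 (132492032-132510501, - strand), was the more widely read, in 40 of 79 eLCs (50.6%, interval 39.1 to 62.1) and 46 moLCs (44.7%, 34.9 to 54.8). Its highest cells were at 594 CPM in eLCs and 781 CPM in moLCs, with medians of 0.25 and 0 CPM. Sesn2 turned with the plate like Cdkn1a: it was at 46.7 CPM in eLCs and 59.1 CPM in moLCs on plate 1 (log2 ratio 0.34), and at 75.8 CPM and 29.4 CPM on plate 2 (-1.37). A single moLC of plate 1 held 18.7% of the Sesn2 reads of that group. Gm12981, which overlaps Sesn2 on the same strand, had 98 reads in all cells kept.

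**Figure D3:**
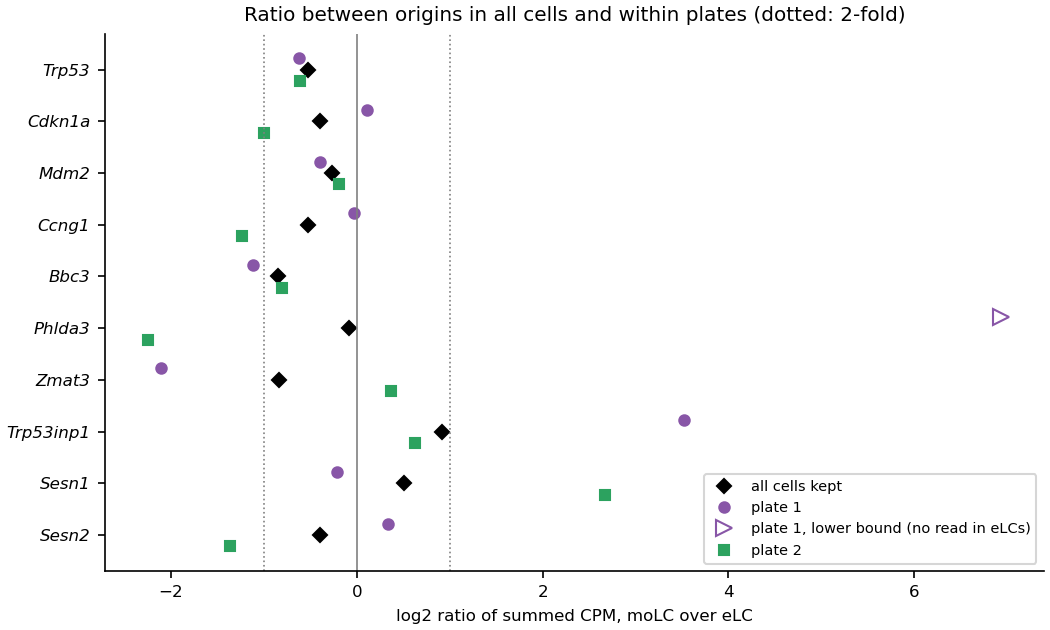
Log2 ratio of summed CPM, moLC over eLC (x axis), for each gene in all cells kept, on plate 1 and on plate 2; dotted lines mark 2-fold and the open triangle is a lower bound, as no plate 1 eLC had a Phlda3 read. Trp53, Mdm2, Ccng1 and Bbc3 lie left of 0 in all 3 sets, and Cdkn1a and Sesn2 lie right of 0 on plate 1 and left of it on plate 2.

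The 6 genes that passed the limit had a median log2 ratio of -0.46, against -0.10 over all 6522 genes. Within plates it was -0.21 on plate 1 and -0.90 on plate 2, where all genes had medians of -0.07 and -0.09. Over all 10 genes the median was -0.40. Of the 6522 genes, 2199 (33.7%) were lower in moLCs in all cells and on both plates whatever the size, and 4 of the 6 genes were among them, also a criterion added after the values were seen. As Bbc3 passed only through eLCs, these counts lean toward eLCs. Ccng1 is counted although its plate 1 ratio was within counting error of 0. The ratios of Trp53, Cdkn1a, Mdm2, Ccng1, Bbc3 and Sesn2 all lay between the 5th and 95th percentiles of the 6522 genes (-0.88 and 0.67).

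**Figure D4:**
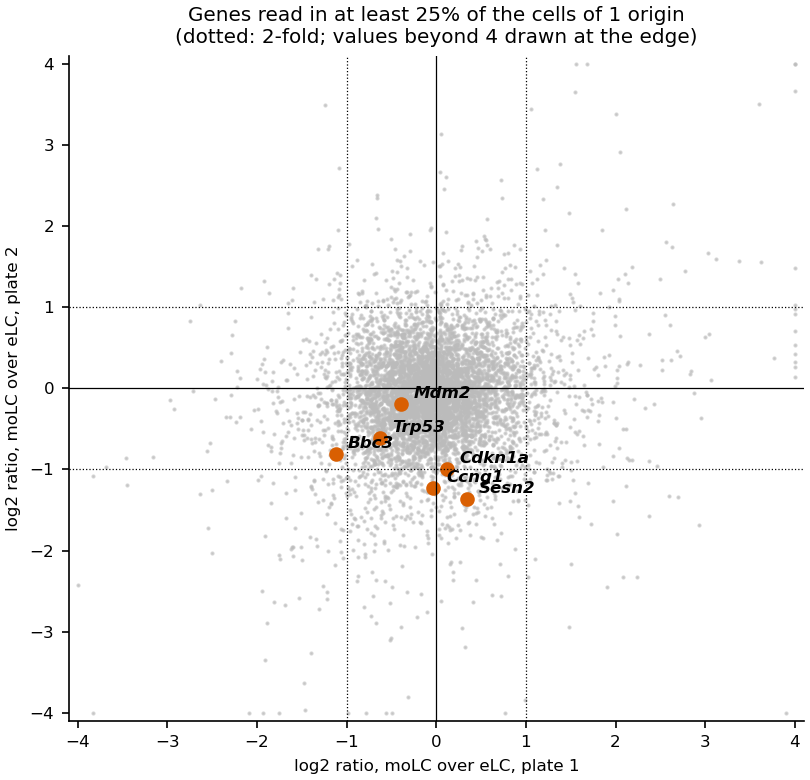
Log2 ratio of summed CPM, moLC over eLC, on plate 1 (x axis) against plate 2 (y axis) for 6522 genes (grey) and the 6 genes of the list among them (orange); dotted lines mark 2-fold and values beyond 4 are drawn at the edge. Bbc3, Trp53 and Mdm2 lie to the lower left, and Cdkn1a, Ccng1 and Sesn2 lie at -0.996, -1.23 and -1.37 on plate 2 with values near 0 or above on plate 1.

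Counted per cell, more of the 10 genes were read in eLCs, with a mean of 4.76 (SD 1.30 over cells, n = 79) against 4.08 in moLCs (SD 1.49). The medians were 5 and 4, and the ranges, 2 to 9 and 1 to 8, overlapped. On plate 1 the means were 4.69 and 4.24, and on plate 2 they were 4.80 and 3.78. At equal depth they were 4.76 and 4.10, nearly as sequenced. Among all genes, more also had a read in eLCs, with medians of 4488 per cell against 4026 in moLCs. Thinning left that gap in place, at 4426 against 4024, and its part in the counts of the 10 genes was not tested. Cells with 3 genes or fewer made up 13.9% of eLCs and 36.9% of moLCs. These cells had medians of 3905 and 3904.5 genes with a read, below the median of either origin.

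**Figure D5:**
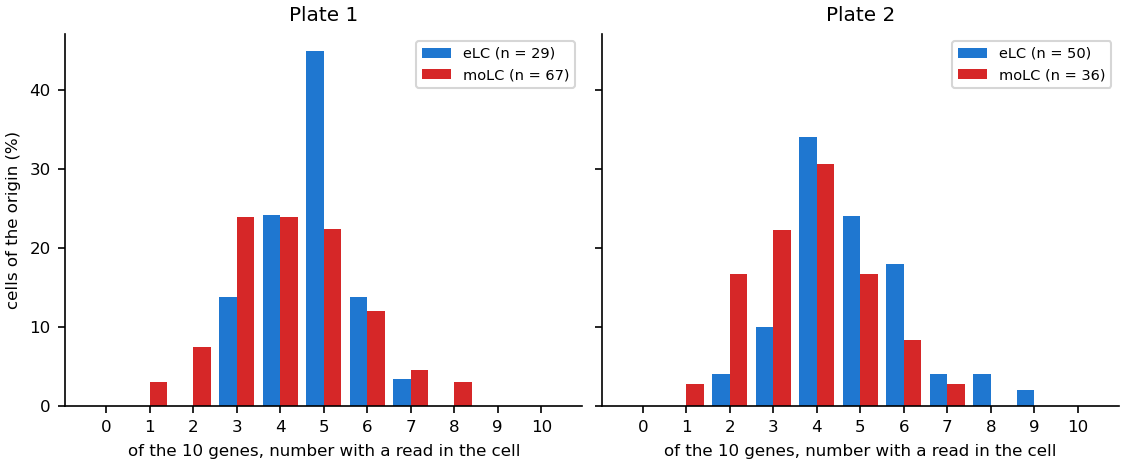
Number of the 10 genes with a read in a cell (x axis) and percent of the cells of each origin (y axis), on plate 1 and plate 2. The moLCs take up more of the bars at 1 to 3 genes on both plates, and the eLCs reach a mean of 4.69 on plate 1 and 4.80 on plate 2.

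The 4 most widely read genes, Trp53, Cdkn1a, Mdm2 and Ccng1, were read together in 50 of 79 eLCs (63.3%, interval 51.7 to 73.9) and 38 moLCs (36.9%, 27.6 to 46.97), a combination chosen after the shares were seen. On plate 1 the shares were 62.1% and 40.3%, and on plate 2 they were 64% and 30.6%. The products of the single shares, 61.6% and 32.9%, were close to these values, so the genes were read together about as often as their own shares give.

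Across the 182 cells the genes moved together weakly. The 15 pairs of the 6 more widely read genes had Spearman correlations of CPM from -0.01 to 0.35 with a median of 0.19. Trp53 with Cdkn1a was at 0.06 and Trp53 with Mdm2 at 0.05. The highest was Mdm2 with Ccng1 at 0.35, with 0.32 within eLCs, 0.34 within moLCs, 0.31 on plate 1 and 0.39 on plate 2. All pairs share the cells and their number of genes with a read, with which Mdm2 itself had a correlation of 0.30. Among 5988 genes read in at least 25% of all cells, those most like Mdm2 were Bax (0.37), Ccng1 (0.35) and Lmna (0.35), and those most like Ccng1 were Mdm2 (0.35), Bax (0.35) and Med30 (0.29). Cdkn1a was most like Sertad1 (0.35), Fosb (0.32) and Fosl2 (0.32), Sesn2 most like Atf3 (0.35), Egr1 (0.34) and Slk (0.30), and Trp53 most like Mpc1 (0.30), Gm12854 (0.29) and Mpc1-ps (0.29). These values are descriptions over cells, which are not replicates.

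Beyond the 10 genes, 37 other p53 targets were listed, of which 34 had a read and 14 passed the 25% limit. None of the 14 met the size rule. Lower in moLCs in all cells and on both plates were 5 of them, Gadd45a, Aen, Bax, Ei24 and Rrm2b, higher were 2, Fas and Triap1, and 7 differed in direction between plates. The 5 of 14 compare with the 33.7% of all genes that were lower in this way. Their median log2 ratio was -0.17, with 0.33 on plate 1 and -0.51 on plate 2. Bax was read in 94.9% of eLCs and 85.4% of moLCs, and Ei24 in 49.4% and 29.1%, and these were the 2 genes with a share gap of at least 10 points on both plates, beside the 9.0% of all genes. Fas, the death receptor, was at 35.4 CPM in eLCs and 75.1 CPM in moLCs, with a log2 ratio of 1.05 on plate 1 and 0.05 on plate 2. Btg2, an antiproliferative gene read in 86.1% of eLCs and 83.5% of moLCs, had log2 ratios of 0.91 on plate 1 and -0.77 on plate 2. The direction thus differed between plates for 7 of these 14 targets, as for Cdkn1a and Sesn2. The shares of all genes that turned, or were higher in moLCs throughout, are not given here. These counts therefore cannot be read as a trait of p53 targets. Gadd45a, Ei24, Triap1 and Pmaip1, like Mdm4, Cop1, Usp7 and Cdkn2a, are named after their values were seen.

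Of 17 genes that control p53, 8 passed the limit and none met the size rule. Mdm4, the partner of Mdm2 that holds p53 inactive, was at 34.4 CPM in eLCs and 47.98 CPM in moLCs, with log2 ratios of 0.37 on plate 1 and 0.74 on plate 2, opposite to Mdm2 on both. Cop1, another ubiquitin ligase for p53, was lower in moLCs in all cells (log2 ratio -0.19) and on both plates (-0.33 and -0.08). It was the only 1 of the 8 with this order, which 33.7% of all 6522 genes had. Usp7, which removes ubiquitin from p53 and MDM2, turned with the plate (0.31 and -1.37). Both Usp7 and Cop1, 2 of the 8, had a share of cells higher in eLCs by at least 10 points on both plates. Of all 6522 genes, 9.0% met that criterion. Cdkn2a, which marks senescence, had 8 reads in 1 eLC and no read in moLCs, which allows a share of moLCs of up to 2.91% by 3 counts of the total, with an exact upper limit of 3.52%. Mki67, a gene of cycling cells, was read in 60.8% of eLCs and 61.2% of moLCs. Of the 8 proliferation genes listed, Mki67 was the only 1 to pass the limit. The next most widely read of them, Top2a, had a read in 13.9% of eLCs and 13.6% of moLCs. Whether the cells were cycling was not tested. Among the relatives of the 10 genes, Trp63 had 24 reads in 1 moLC and Trp73 had none, and Sesn3 was read in 11.4% of eLCs and 7.77% of moLCs.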

How the data were processed

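Single epidermal LCs were sequenced by the authors with a Smart-Seq kit, and the submitters' processing notes name STAR and mm10. The counting tool and annotation were not given in the sources used here. The deposited table holds reads per gene and cell without normalization. As 9 deposited values, in 8 cells and 4 genes, were not whole, their unit was set to expected counts and they were rounded. Cells with over 5% mitochondrial reads were left out, and 182 were kept, with 432614 to 4525429 reads each. Counts were summed by origin and by plate and divided by all reads to give CPM. Ratios, exact Poisson and Clopper-Pearson intervals and binomial intervals on ratios cover counting error only. Where a whole group had 0 reads, 3 reads stood in for the group's sum. Cells were also thinned to the 10th percentile of the totals. Each origin is 1 sample, so no test was made, and the study's rank test over cells was not repeated. No doublet caller was run on these singly sorted cells. Coordinates came from GENCODE M21 (GRCm38), which named 45495 of the 45661 genes. All 10 genes are described, with the 3 genes most like each of the 5 read in at least 25% of both origins. From each other list, genes past the size rule, the most widely read, relatives and markers could be named. The genes and lists were chosen with earlier results of these data known. Alternatives were single plates, edgeR TMM factors, adding back the 3 cells left out, equal weight per cell, other limits and leaving out cells. Scripts were tested on simulated data. Python 3.11.15, numpy 2.4.6, pandas 2.3.3, scipy 1.17.1, matplotlib 3.10.9, R 4.3.3 and edgeR 4.0.16 were used.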

Additional observations from a re-analysis of the deposited data

Results flagged for a closer look

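The 3 moLCs of plate 2 that the mitochondrial limit left out, with 9.97% to 29.3% mitochondrial reads, enter no comparison above, and 4 of the 10 genes had reads in them. Cdkn1a was read in all 3 at 1280 CPM summed over them, and Mdm2 in all 3 at 357 CPM. Bbc3 was at 12.7 CPM and Sesn2 at 8.11 CPM, each from 1 cell. Trp53, Ccng1, Phlda3, Zmat3, Trp53inp1 and Sesn1 had no read there.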

How the results depend on the processing

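With each origin a single sample, counts and ratios have counting error only, and no statement on replicates can be made. No paired analysis was possible because no test was made and no label pairs the cells. The number of genes past the size rule, 0 of 6, was also 0 with TMM factors, beside 2.04% of all genes. It was 0 with the 3 cells left out added back (130 of 6496 genes) and with equal weight per cell (1.84%). It was 0 without a limit on low values, with all 10 genes counted (8.68%), and at a limit of 50% of cells (0.63%). With at most 10 genes and such shares, a count of 0 is not unusual and says little of robustness. The number was 1 on plate 1 alone (Bbc3, beside 11.3% of all genes) and 2 on plate 2 alone (Ccng1 and Sesn2, beside 11.4%). It was 1 at 1.5-fold (Bbc3, beside 7.68%). The median log2 ratio of the 10 genes, -0.40, was -0.12 on plate 1, -0.71 on plate 2, -0.30 with TMM factors, which moved the median of all genes from -0.10 to 0.00, and -0.36 with equal weight per cell, and leaving out 1 cell gave -0.46 to -0.32. The cause was not tested. The mean number of the 10 genes read per cell was higher in eLCs under equal depth and on each plate. It was also higher with at least 10 reads asked for (4.49 against 3.84). The origins were closer on plate 1 (4.69 against 4.24) than on plate 2 (4.80 against 3.78). The median number of all genes with a read was likewise higher in eLCs, at equal depth and on each plate. Of 70 alternative values of single log2 ratios, 53 moved beyond their counting interval and 17 did not, and the 40 alternative shares, at equal depth and with at least 10 reads, stayed within theirs. Single plates were not among these, and the shares of Mdm2 (55.6%), Sesn1 (2.78%), Sesn2 (33.3%) and Cdkn1a (100%) in plate 2 moLCs and of Trp53inp1 (6.90%) and Phlda3 (0%) in plate 1 eLCs lay outside the pooled intervals. Trp53, Mdm2, Ccng1, Bbc3 and Trp53inp1 kept their direction in all 7 alternatives, though Ccng1 on plate 1 was within counting error of 0. The log2 ratio of Trp53inp1 fell from 0.91 to 0.19 with equal weight per cell. Cdkn1a, Sesn1 and Sesn2 turned on plate 1, Zmat3 on plate 2 and Phlda3 in 4. The share criterion of 10 points, the criterion of any lower sum on both plates and the combination of 4 genes were added after the values were seen.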
